A study of Mus musculus with 13 samples.

Results

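Of the 13 RNA-Seq libraries of the series, the 9 prepared from tumor endothelial cells (ECs) are described, chosen by their sample labels. They form an Apelin-depleted group of 3 libraries and an Apelin wild-type group of 6. Apelin-depleted tumors were shApln E0771 cells growing in Apln-/- hosts, and Apelin wild-type tumors were shRenilla E0771 cells growing in Apln+/+ hosts. E0771 is a mouse mammary carcinoma line, and the hairpin against Renilla is a control without a mouse target. All hosts were C57BL/6J mice (spelled C57BL6/J in the sample labels) with cells injected into a mammary fat pad. Tumors were taken at day 25, and the ages of the mice are not given in the sources used here. Host and tumor cells lost Apelin together, and the host deletion was constitutive, so the source of the missing peptide and the time of its loss cannot be told apart. Each library held 100 sorted cells, gated as CD31-positive, CD105-positive, CD45-negative and negative for the dead-cell dye DAPI, and amplified with the Smart-Seq2 protocol. The labels do not say which mouse each library came from, so p-values measure the spread between these libraries, which may in part be technical.

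Apelin is a secreted peptide that acts on a G protein-coupled receptor of ECs, encoded by Aplnr. The ligand is made by sprouting tip cells and by many tumors, whereas the receptor is found on veins, capillaries and growing vessels. Tumor ECs line vessels that are irregular, leaky and inflamed. They share the gate proteins CD31 (Pecam1) and CD105 (Eng) with lymphatic ECs and, at lower levels, with some myeloid cells. RNA from fewer cells of a type and from less RNA per cell cannot be told apart in such pools.

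Total counts per library lay between 4661044 and 14455093, and 13466 to 16681 of 24984 listed genes had at least 1 count. The floor used for a gene without counts, 3 counts, corresponded to 0.211 to 0.596 CPM (counts scaled to TMM-normalized library sizes), and this floor covers counting error only. Of the 30 genes in the endothelial identity list all were tested, and Pecam1 lay between 1007 and 1789 CPM in the 9 libraries. Xist was present in every library, from 206 to 619 CPM, and the 4 Y-linked genes examined had no counts. The first principal component (20.4% of the variance) set Apelin wild-type library 5 apart from the other 8, and the second (15.7%) placed Apelin-depleted library 3 at one end and wild-type library 3 at the other. Neither component separated the groups.

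**Figure D1:**
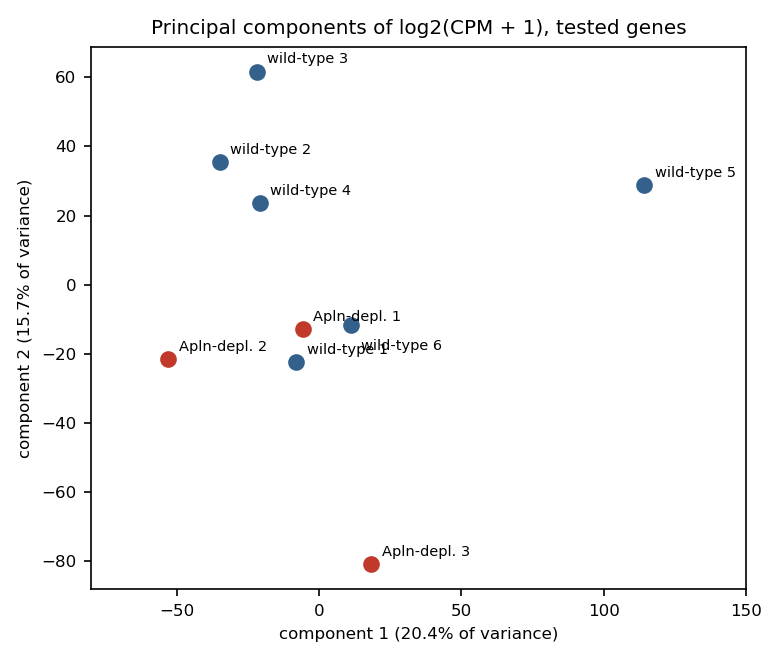
Scores of the 9 tumor EC libraries on the first (x axis) and second (y axis) principal components of log2(CPM + 1) over the 13073 tested genes, in the units of the component. Red points are the 3 Apelin-depleted libraries and blue points the 6 wild-type libraries, and the wild-type library 5 lies alone to the right.

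Apln, the targeted gene (chrX:48025146-48034853, GRCm38 RefSeq annotation), was the 1 gene that fell past the thresholds in edgeR. It stood at 12.1, 8.51 and 2.44 CPM in the Apelin-depleted libraries and at 416, 895 and 1033 CPM as lowest, median and highest wild-type values. The groups did not overlap. The log2 fold change (Apelin-depleted over Apelin wild-type) was -6.70 (SE 0.59, edgeR adjusted p = 6.13e-05), past the thresholds of 0.05 for the adjusted p and of 1 for the fold change. Aplnr stood at 67.3, 439 and 246 CPM against 124, 222 and 316 CPM, so that Apelin-depleted libraries held both its lowest and its highest value. Its log2 fold change was 0.21 (SE 0.44, edgeR adjusted p = 1.00), and -0.46 without Apelin-depleted library 2. The second ligand gene of the receptor, Apela, had 1 count in 1 library and was not tested. Of the 11 tested members of the apelin pathway list, 5 were lower and 6 higher, and Apln alone was lower at an unadjusted p under 0.05, against 2.94% of all tested genes. Arrb1 and Arrb2, which encode arrestins that take up activated receptors, had log2 fold changes of 0.31 (SE 0.38) and -0.73 (SE 0.87).

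The genes next to Apln were examined because a targeted allele can carry flanking DNA. Of the 10 tested genes on either side, 13 were higher and 7 lower. Their median log2 fold change was 0.22, and 0 of the 20 had groups that did not overlap. Zdhhc9, a palmitoyltransferase gene, alone had an unadjusted edgeR p under 0.05 (log2 fold change -1.17, SE 0.55, adjusted p = 1.00). Over all tested genes, 2.94% were lower and 1.87% higher at that p. The groups did not overlap in 1.27% (Apelin-depleted below) and 1.06% (above) of them.

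The sorted pools differed from each other in RNA of other cell types, and most of these differences followed single libraries instead of the group. Marker lists of 14 other cell types were summed per library. The macrophage and monocyte list summed to 1316 CPM in Apelin-depleted library 1 and 717 CPM in wild-type library 4, against 60 to 282 CPM in the other 7 libraries. The fibroblast list summed to 6434 CPM in wild-type library 2 and to 44 to 221 CPM in the other 8. The lymphatic endothelium list summed to 2482 CPM in wild-type library 3, 2374 CPM in Apelin-depleted library 2 and 883 CPM in Apelin-depleted library 1, against 10.2 to 126 CPM in the other 6.

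**Figure D2:**
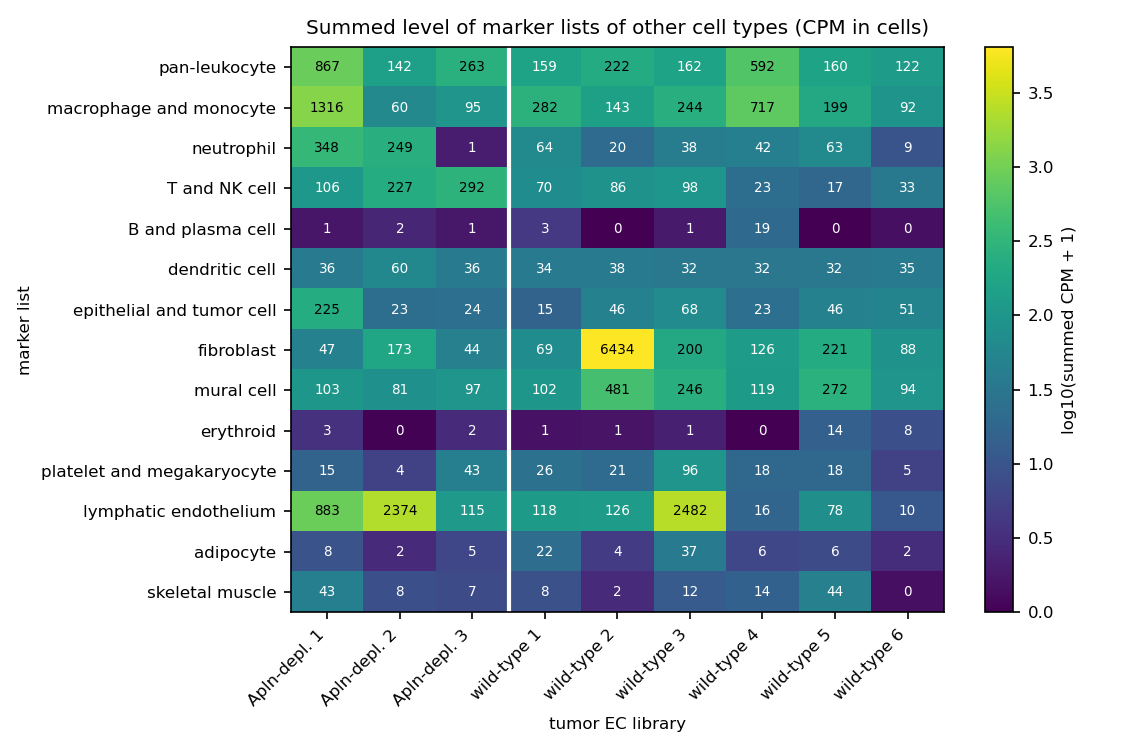
Summed CPM of the marker lists of 14 other cell types (rows) in each tumor EC library (columns, the 3 Apelin-depleted libraries left of the white line), with color on a log10(CPM + 1) scale. Single libraries stand out, as the fibroblast list at 6434 CPM in wild-type library 2 and the macrophage and monocyte list at 1316 CPM in Apelin-depleted library 1.

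Leukocyte RNA was found in both groups in spite of the CD45-negative gate. Ptprc, which encodes CD45, stood at 39.6, 0 and 25 CPM in Apelin-depleted libraries 1, 2 and 3, and at 60.0 CPM in wild-type library 4 with 0.293 to 16.9 CPM in the other wild-type libraries. The groups overlapped, with a log2 fold change of 0.53 (SE 1.56, edgeR adjusted p = 1.00). Lyz2, a lysozyme of macrophages and granulocytes, reached 601 CPM in Apelin-depleted library 1 and 455 CPM in wild-type library 4, and lay between 2.18 and 23.1 CPM in the other 7. Cd14, a co-receptor for lipopolysaccharide, was at 220 CPM in Apelin-depleted library 1 and at 136 CPM in wild-type library 1. Chil3, a marker of alternatively activated myeloid cells, was at 112 CPM in Apelin-depleted library 1 and at or below 2.19 CPM elsewhere. Of the 16 macrophage and monocyte markers 8 were lower and 8 higher (median log2 fold change -0.15, with -2.68 without Apelin-depleted library 1 and 0.41 without Apelin-depleted library 2), and Chil3 alone was higher at an unadjusted p under 0.05, against 1.87% of all tested genes. Without Apelin-depleted library 1, 0 were higher and 4 lower at that p, and without the 2 libraries highest in these markers 0 were higher and 2 lower. The pan-leukocyte list, all 12 members tested, had 10 higher and 2 lower members. Their median log2 fold change was 1.20, with -0.38 without Apelin-depleted library 1 and 1.94 without wild-type library 4. Its highest member was Lcp1, an actin-bundling protein of leukocytes, at 62.9 to 142 CPM in the 9 libraries with overlapping groups. Fcer1g, an Fc receptor subunit, was at 190 CPM in Apelin-depleted library 1 and at or below 64.8 CPM elsewhere.

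Genes of neutrophils and of T and NK cells were distributed differently. S100a8, a calcium-binding alarmin abundant in neutrophils, had 0 counts in all 3 Apelin-depleted libraries and 0.391, 7.04 and 13.7 CPM as lowest, median and highest wild-type values. Against the floor of 3 counts per library, its mean was at least 17.8-fold lower (edgeR unadjusted p = 0.000905, adjusted p = 0.686). Of 14 listed neutrophil markers, 5 passed the filter on low counts and were tested. All 3 lower markers, S100a8 and S100a9 among them, passed it only through the wild-type libraries, so the filter set their direction. Of the 5, 3 were lower and 1 higher at an unadjusted p under 0.05, against 2.94% and 1.87% of all tested genes. The lower ones numbered 2 to 4 with each library left out, and the higher one 0 without Apelin-depleted library 2. Because of the filter, no conclusion about the list is drawn from these counts. The neutrophil list summed to 348, 249 and 0.975 CPM in Apelin-depleted libraries 1 to 3 and to 8.77 to 64 CPM in the wild-type group. In Apelin-depleted libraries 1 and 2 that sum was carried by Lcn2, an iron-sequestering lipocalin also made by inflamed stroma, at 126 and 245 CPM, and in library 1 by the cytokine gene Il1b at 220 CPM. The sum of the T and NK cell list was 106, 227 and 292 CPM in the Apelin-depleted libraries and 17 to 97.8 CPM in the wild-type libraries, without overlap. Of 17 listed members 6 passed the filter on low counts, and all 6 were higher (median log2 fold change 1.41, and 2.27 without wild-type library 4). Cd2 alone had an unadjusted p under 0.05, against 1.87% of all tested genes. It passed the filter only through the Apelin-depleted libraries, so the filter set its direction. Different members carried the list sum in each library. In Apelin-depleted library 3 these included Lck (74.3 CPM), Cd3g (32.2 CPM), Cd8b1 (32 CPM), Nkg7 (48.0 CPM) and Gzmb (31.4 CPM). Cd3g, Cd8b1, Nkg7 and Gzmb, genes of T cells or cytotoxic lymphocytes, were named after their values were seen. In library 2 the main member was Thy1, a surface glycoprotein of T cells and of some stromal and lymphatic cells, at 156 CPM. Lck, a kinase of T cell receptor signaling, was at 21.2, 24.3 and 74.3 CPM against wild-type values of 7.56, 10.2 and 50.1 CPM (lowest, median, highest).

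Most stromal markers had negative log2 fold changes, few of them at an unadjusted p under 0.05, and the library with the highest value differed between markers. Of 12 listed fibroblast markers 8 passed the filter on low counts, among them Dpt only through wild-type libraries, which set its direction. All 8 were lower (median log2 fold change -4.77, where 51.9% of all tested genes were lower). At an unadjusted p under 0.05, 2 of them were lower, against 2.94% of all tested genes. The median was -1.74 without wild-type library 2. Dcn, a small proteoglycan, and Col3a1, a fibrillar collagen, reached 2097 and 1219 CPM in that library. Col3a1 stood at 23.1, 1.97 and 8.53 CPM in the Apelin-depleted libraries and at 28.3, 93.7 and 1219 CPM as lowest, median and highest wild-type values. Its groups did not overlap, whereas those of Dcn did, at 0.170, 159 and 23 CPM against 0.141, 2.10 and 2097 CPM, with Apelin-depleted libraries 2 and 3 above every wild-type library but library 2. Of 10 mural cell markers 9 were lower (median -1.34, and -0.52 without wild-type library 2), 2 of them at an unadjusted p under 0.05, against the same 2.94%. With each library left out, 1 to 3 markers were lower at that p in the fibroblast list and 1 to 3 in the mural list, with 1 mural marker without wild-type library 3 or Apelin-depleted library 2. Pdgfrb, the pericyte receptor for PDGF-B, was at 0.850, 0.141 and 2.44 CPM against 3.65, 13 and 168 CPM, without overlap (log2 fold change -5.05, SE 1.57, edgeR adjusted p = 0.914). Its highest value was in wild-type library 2. Pdgfrb passed the filter on low counts only through wild-type libraries, which set its direction. DESeq2 called Pdgfrb lower (DESeq2 adjusted p = 0.0032, with 0.671% of genes called lower by DESeq2). With each library left out its log2 fold change was -6.39 to -3.31. Kcnj8, a potassium channel of pericytes, was at 16.5, 12.2 and 16.9 CPM against 13.2, 38 and 122 CPM, highest in wild-type library 3. Rgs5, another pericyte marker, was at 0.211 to 18.2 CPM against 2.55 to 126 CPM, with its high values in wild-type libraries 2 and 5. Dpt, a dermal matrix protein gene, was at 0 to 0.510 CPM against 0 to 44.7 CPM.

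Lymphatic markers marked 2 of 3 Apelin-depleted libraries and 1 of 6 wild-type libraries. Lyve1, a hyaluronan receptor of lymphatic ECs and some macrophages, was at 632, 1081 and 93.6 CPM against 0.684, 13.8 and 1712 CPM. Mmrn1 was at 140, 703 and 7.68 CPM against 0, 8.25 and 456 CPM, and Prox1, the transcription factor that specifies lymphatic ECs, was at 28.5, 175 and 0.731 CPM against 0, 2.06 and 66.7 CPM. All 5 tested markers were higher (median log2 fold change 1.56), and the median was -0.21 without Apelin-depleted library 2 and 4.58 without wild-type library 3. The sixth, Ccl21a, had no counts in any library, as had the globin genes such as Hba-a1. Both belong to sets of near-identical copies, whose reads the counting may have dropped.

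The remaining lists were low. The epithelial and tumor cell list summed to 225 CPM in Apelin-depleted library 1, of which Cldn4, a tight junction claudin, gave 172 CPM, and to 15.2 to 68.4 CPM in the other 8. Krt8, a keratin of simple epithelium, was at 43.2, 1.55 and 9.99 CPM against 5.30, 38.1 and 65.3 CPM. Dendritic cell markers summed to 31.8 to 59.5 CPM. Zbtb46, a transcription factor shared by ECs, was at 7.49 to 49.0 CPM, while Clec9a was at 0.0977 to 20.8 CPM. B and plasma cell markers summed to 19.3 CPM in wild-type library 4, with Cd79b and Jchain at 6.55 CPM each, and to at most 3.29 CPM elsewhere. Platelet markers summed to 4.43 to 96.3 CPM, led by the integrin gene Itga2b (0.695 to 69.2 CPM) and Pf4 (0 to 16.3 CPM). The erythroid heme enzyme gene Alas2 was at 0 to 13.9 CPM. Adipocyte markers summed to 1.97 to 37.4 CPM and included Cfd (0 to 20.1 CPM), Plin4 (0 to 9.82 CPM) and Retn, which was at 25.6 CPM in wild-type library 3 and at or below 1.17 CPM elsewhere. Skeletal muscle markers summed to 0.424 to 44.3 CPM, with Mylpf at 43.9 CPM in wild-type library 5 and Acta1 at 40.3 CPM in Apelin-depleted library 1. The part of these cell types in the differences that follow was not tested.

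**Figure D3:**
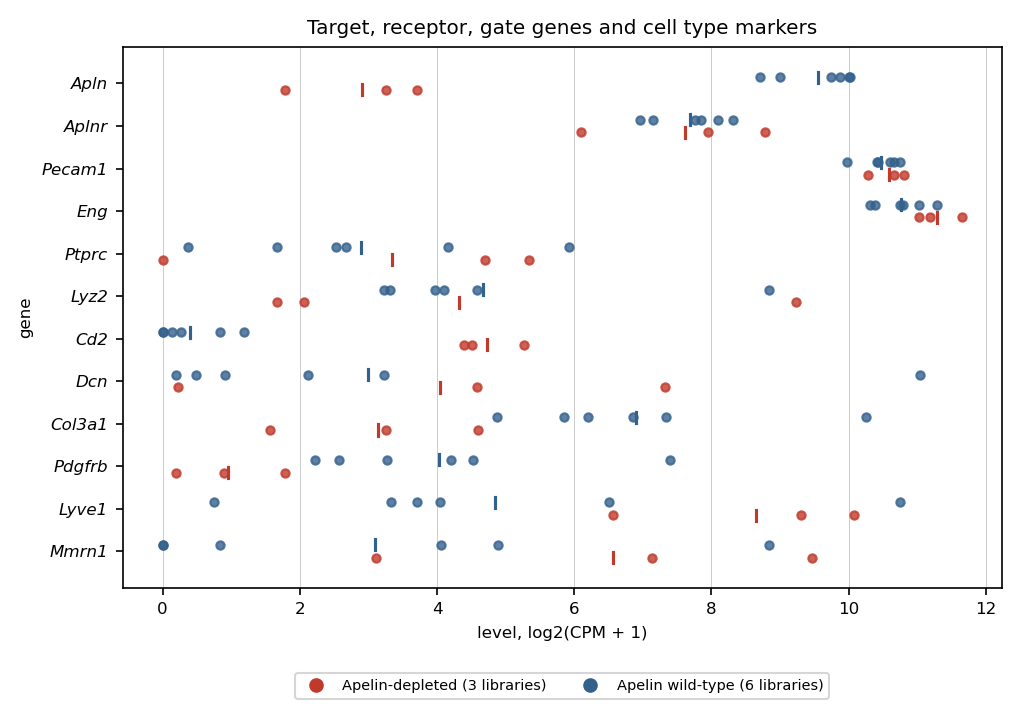
Level, log2(CPM + 1) on the x axis, of Apln, its receptor gene, the gate genes and markers of other cell types in each tumor EC library, with a bar at the group mean. Apln and Cd2 separate the 3 Apelin-depleted (red) from the 6 wild-type (blue) libraries, and Lyz2, Dcn and Lyve1 are spread by single libraries.

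Across the 13073 tested genes, 1 was lower and 0 were higher past both thresholds in edgeR (0.00765% and 0.0% of tested genes). An unadjusted p under 0.05 was found for 384 lower genes (2.94%) and 245 higher genes (1.87%), or 4.81% of tested genes in all. DESeq2 called 97 genes lower (0.671%) and 19 higher (0.131%) at the same thresholds, of 14461 with an adjusted p. All Apelin-depleted libraries lay below all wild-type libraries in 166 genes (1.27%) and above them in 139 (1.06%). By sign alone, 6784 fold changes (51.9%) were negative and 6289 (48.1%) positive, and their median was -0.03. Of the 384 lower genes, 155 had a mean under 10 CPM in both groups, against 15 of the 245 higher genes, and 51 had no counts in any Apelin-depleted library. The filter on low counts needed enough counts in 3 libraries. Any 3 of the 6 wild-type libraries could supply these, whereas a gene seen in the Apelin-depleted group alone needed all 3 of its libraries. The filter thus favored lower genes of low level, and no conclusion is drawn from these counts.

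The 12 lower genes with the smallest p among those with a mean of at least 10 CPM were Apln and 11 genes that edgeR did not call and DESeq2, the alternative test, called lower (adjusted p of 2.33e-05 to 0.030, with 0.671% of genes called lower by DESeq2). Each had all Apelin-depleted libraries below all wild-type libraries (1.12% of the 9279 genes at that level), and all were chosen by their p in the same comparison. Lgals1 was the most abundant of them. It encodes galectin-1, a glycan-binding protein secreted by tumor ECs. It stood at 374, 367 and 322 CPM against 531, 1026 and 1476 CPM (log2 fold change -1.5, SE 0.32, edgeR adjusted p = 0.532). Ccnd2, a G1 cyclin, was at 143, 44.1 and 78.2 CPM against 189, 257 and 514 CPM (log2 fold change -1.72). Uqcc2, an assembly factor of respiratory complex III, was at 73.9, 77.5 and 84.7 CPM against 128, 162 and 271 CPM. Arap1, a GTPase-activating protein for Arf proteins, was at 8.29 to 13.6 CPM against 26.0 to 89.9 CPM.

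The other 7 genes were of lower abundance. Wnt7b, a Wnt ligand, was at 0.680, 1.83 and 0.487 CPM against 4.93, 19.2 and 44.3 CPM (log2 fold change -4.37, SE 0.95, edgeR adjusted p = 0.532). Ereg, an EGF receptor ligand, was at 0 to 1.19 CPM against 2.01 to 31.4 CPM. Nptx1, a neuronal pentraxin, was at 2.46 to 10.8 CPM against 22.9 to 90.9 CPM, and Dnm1, a dynamin best known from synapses, at 2.21 to 5.24 CPM against 8.77 to 68.1 CPM. Acpp, an acid phosphatase, was at 0.211 to 0.853 CPM against 2.44 to 47.7 CPM. Ildr2, a membrane protein of the immunoglobulin family, was at 1.02 to 3.90 CPM against 12.3 to 35.7 CPM, and the co-chaperone gene Bag2 at 1.22 to 2.21 CPM against 7.31 to 27.5 CPM. Several of these Apelin-depleted values rest on fewer than 10 counts. Wnt7b, Ereg, Acpp, Ildr2 and Bag2 passed the filter on low counts only through the wild-type libraries, so the filter set their direction.

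**Figure D4:**
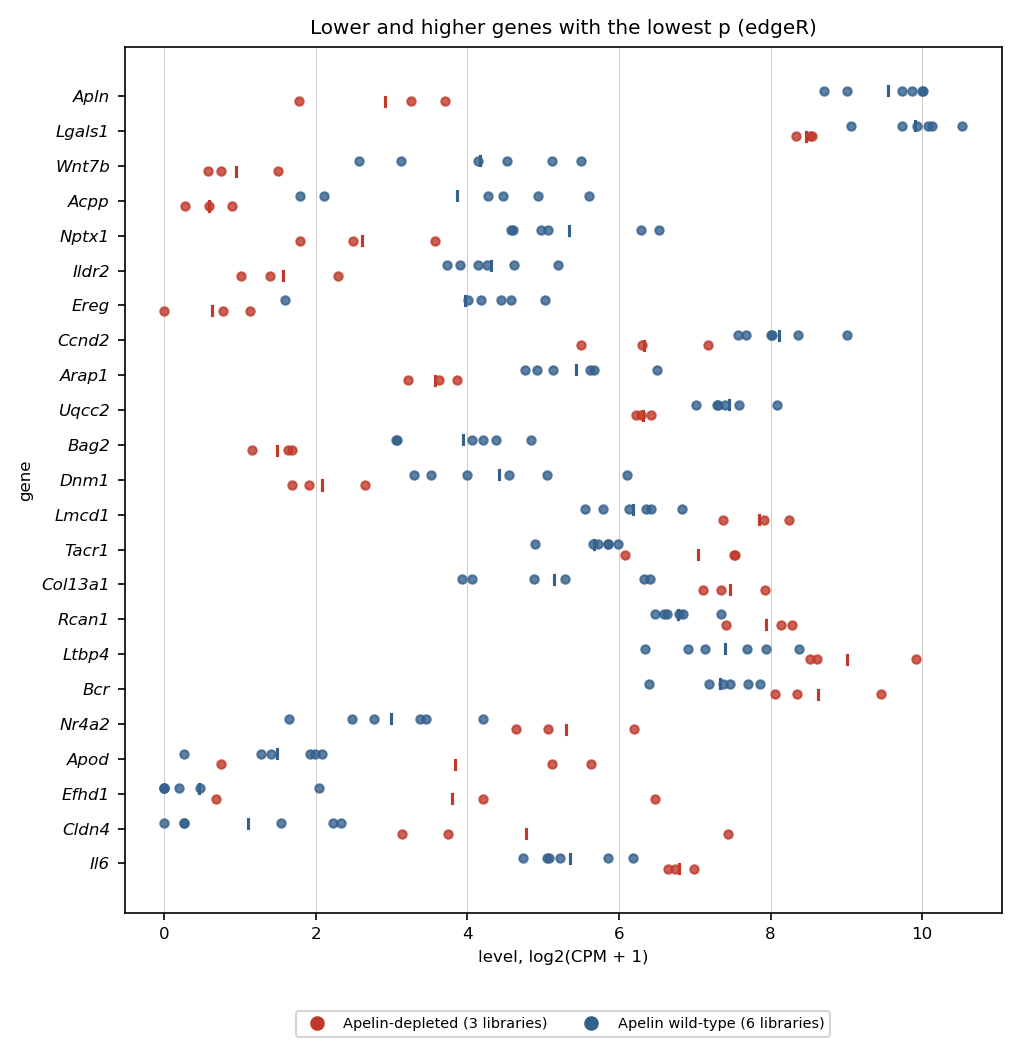
Level, log2(CPM + 1) on the x axis, of the 12 lower genes and 11 of the 12 higher genes with the smallest edgeR p among genes of at least 10 CPM on average, in each tumor EC library, with a bar at the group mean. Blue (wild-type) and red (Apelin-depleted) points do not mix in 21 of the 23 genes, the exceptions being Apod and Efhd1, and Apln is set furthest apart among the lower genes.

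The 12 higher genes with the smallest p had no call in edgeR, whereas DESeq2 called Lmcd1, Rcan1, Tacr1, Nr4a2 and Apod of those described here (0.131% of genes called higher by DESeq2), and 10 of them had groups without overlap (1.05% of genes at that level). Lmcd1, a LIM-domain cofactor, led them at 165, 302 and 239 CPM against 45.8, 75.2 and 112 CPM (log2 fold change 1.66, SE 0.32, edgeR adjusted p = 0.308). Rcan1, an inhibitor of calcineurin that VEGF is known to induce in ECs, was at 280, 310 and 169 CPM against 88.2, 104 and 162 CPM (log2 fold change 1.19). Il6, an inflammatory cytokine, was at 127, 99.3 and 106 CPM against 25.7, 34.5 and 72.0 CPM (1.37). Tacr1, the substance P receptor, was at 182, 66.9 and 184 CPM against 28.8, 54.3 and 62.5 CPM (1.5). Col13a1, a transmembrane collagen, was at 161, 137 and 242 CPM against 14.2, 33.2 and 83.7 CPM (2.06). Ltbp4, which anchors latent TGF-beta in the matrix, was at 365, 966 and 390 CPM against 80.5, 172 and 332 CPM (1.62), and Bcr, a regulator of small GTPases, at 324, 701 and 267 CPM against 83.2, 171 and 232 CPM (1.36). Nr4a2, an immediate-early nuclear receptor, was at 32.5, 23.9 and 72.5 CPM against 2.12, 7.56 and 17.5 CPM (2.38). In each of these 8 genes all Apelin-depleted libraries were above all wild-type libraries.

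A further 3 were carried by 1 or 2 libraries. Cldn4 was at 172, 7.81 and 12.4 CPM against 0, 1.05 and 4.02 CPM. Apod, a lipocalin, was at 0.680, 48.5 and 33.6 CPM against 0.196, 2.21 and 3.22 CPM. Efhd1, a mitochondrial calcium-binding protein, was at 87.9, 17.5 and 0.609 CPM against 0, 0.0707 and 3.13 CPM.

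Endothelial genes as a group were not lower without Apelin. In the endothelial identity list 26 of 30 tested genes were higher and 4 lower (median log2 fold change 0.26, against -0.03 over all tested genes). The median was 0.14 without Apelin-depleted library 3 and 0.41 without Apelin-depleted library 1. In that list 1 gene was higher at an unadjusted p under 0.05 against 1.87% of all tested genes, and 0 to 4 with each library left out. Kdr, which encodes VEGF receptor 2, was at 971, 633 and 1176 CPM against 418, 599 and 775 CPM (log2 fold change 0.64, SE 0.28, edgeR adjusted p = 1.00). Flt1, which encodes VEGF receptor 1, was at 1698, 1059 and 2684 CPM against 976, 1282 and 1394 CPM, and Tal1, a hemato-endothelial transcription factor, at 30.1, 57.5 and 31.3 CPM against 9.90, 19.8 and 31.1 CPM. The gate genes overlapped between groups, with log2 fold changes of 0.11 (SE 0.26) for Pecam1 and 0.52 (SE 0.28) for Eng. In the list of VEGF receptors and tip cell genes 22 of 30 were higher (median 0.30, and 0.15 without Apelin-depleted library 3), 3 of them at an unadjusted p under 0.05. The number was 2 to 7 with each library left out, and 1 without the 2 libraries highest in macrophage markers. Vegfc, a ligand for VEGF receptor 3, was at 68.7, 87.8 and 139 CPM against 9.55, 31.5 and 56.8 CPM without overlap (log2 fold change 1.69, SE 0.46, edgeR adjusted p = 0.726). Flt4, the gene of that receptor, was at 286, 433 and 140 CPM against 78.7, 95.1 and 309 CPM, with its high values in the libraries that were also high in lymphatic markers.

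Of the Notch, vessel-type, junction and TGF-beta lists edgeR called 0 genes, and DESeq2 called Mgp alone (lower, DESeq2 adjusted p = 0.0133). Of 16 tested Notch pathway genes 10 were higher (median 0.14, with 0.0048 without Apelin-depleted library 2 and 0.33 without wild-type library 2) and 0 passed an unadjusted p under 0.05. The 3 with the smallest p were Efnb2, an arterial ephrin, with a log2 fold change of 0.63 (SE 0.45), Rbpj, the nuclear effector of Notch, with -0.96 (SE 0.73), and the receptor gene Notch2 with -0.73 (SE 0.59). Of 20 artery, vein and flow genes 16 were higher (median 0.60), and the median was 0.08 without Apelin-depleted library 2. At an unadjusted p under 0.05, 2 of them were lower (Mgp and Cytl1) and 2 higher (Selp and Klf4), against 2.94% and 1.87% of all tested genes, and without that library 0 were in either direction. Klf4, a flow-induced transcription factor, was at 476 CPM in that library and at 131 and 84.6 CPM in the other Apelin-depleted libraries, against 53.7, 121 and 144 CPM. Mgp, a matrix protein of arterial walls, was at 0.850, 0 and 1.46 CPM against 0.196, 41.1 and 353 CPM, with its highest value in wild-type library 1. Mgp and Cytl1 passed the filter on low counts only through wild-type libraries, which set their direction. Of 30 junction and barrier genes 22 were higher (median 0.22, with 0.086 without Apelin-depleted library 2 and 0.39 without Apelin-depleted library 1), again with 0 at an unadjusted p under 0.05. Among them the fenestral diaphragm gene Plvap was at 2811, 3751 and 4698 CPM against 1319, 2720 and 4013 CPM. The catenin gene Ctnnd1 and the angiopoietin receptor gene Tek both had a log2 fold change of 0.51, with SEs of 0.28 and 0.31. In the TGF-beta, BMP and activin list 21 of 30 were higher (median 0.31) and 1 was lower at an unadjusted p under 0.05, and with each library left out 0 to 2 were lower and 0 to 4 higher at that p. The 1 lower gene was Inhba, an activin subunit, at 2.72, 0.774 and 0.487 CPM against 0.848, 5.77 and 43.8 CPM, while Tgfb2 and the inhibitory Smad6 had log2 fold changes of 0.93 (SE 0.48) and 1.25 (SE 0.65). Inhba passed the filter on low counts only through wild-type libraries, which set its direction.

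**Figure D5:**
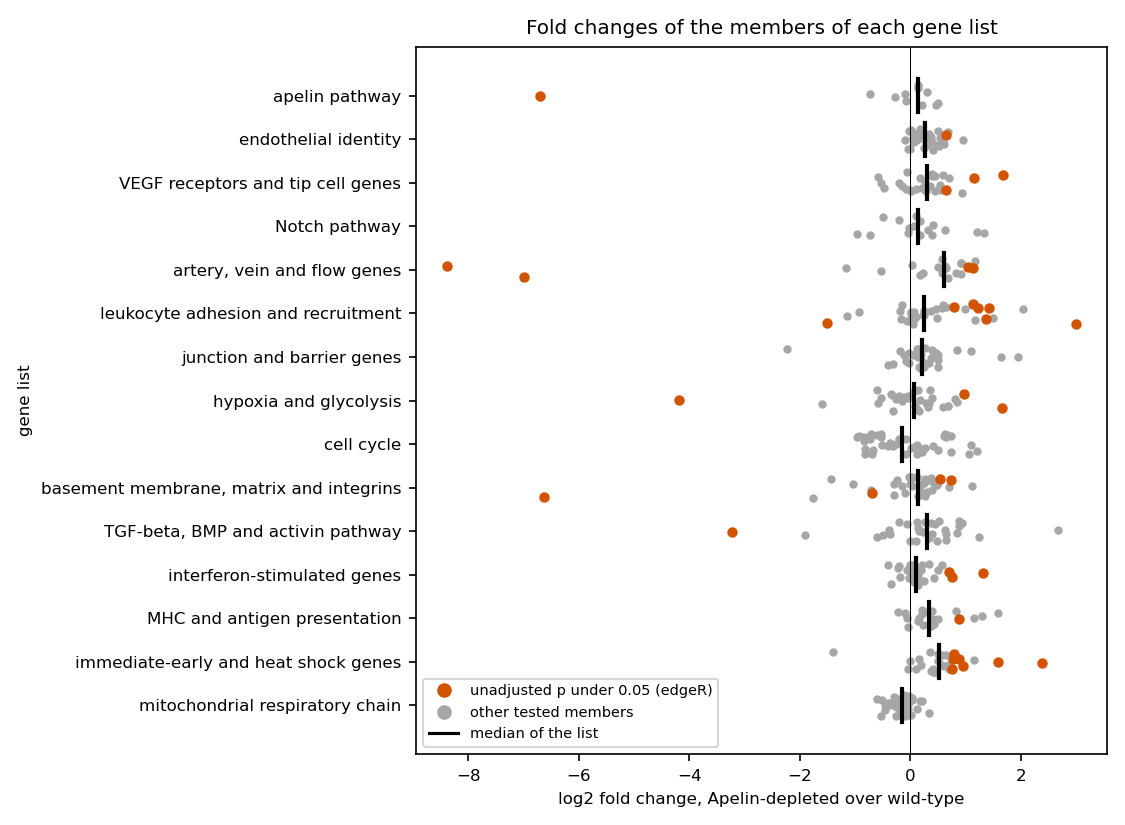
Log2 fold changes (x axis, Apelin-depleted over wild-type, edgeR) of the tested members of the 15 process lists, 1 point per gene. The black bar is the list median, and orange points have an unadjusted edgeR p under 0.05. Most medians lie between 0 and 0.60, and Apln stands at -6.70 in the apelin pathway list.

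Several genes that activated ECs use to recruit leukocytes had positive log2 fold changes, none of them called by edgeR or by DESeq2. In the leukocyte adhesion and recruitment list 26 of 33 tested genes were higher (median 0.24, and 0.47 without wild-type library 2, where 48.1% of all tested genes were higher), 6 of them at an unadjusted p under 0.05 against 1.87% of all tested genes, and the number lay between 4 and 8 with each library left out in turn. Selp, the adhesion receptor P-selectin stored by ECs, was at 630, 779 and 809 CPM against 117, 288 and 703 CPM (log2 fold change 1.15, SE 0.47, edgeR adjusted p = 0.981). Podxl, a sialomucin that coats the luminal surface, was at 180, 393 and 572 CPM against 116, 168 and 200 CPM (1.23, SE 0.33, edgeR adjusted p = 0.686). The others were Il6, given above, and Csf3, Sele and Icam1, named after their values were seen. Csf3, which encodes the granulocyte growth factor G-CSF, was at 105, 170 and 286 CPM against 0.707 to 54.0 CPM. Sele, the cytokine-induced adhesion receptor E-selectin, was at 338, 198 and 185 CPM against 11.7 to 177 CPM. Icam1, a ligand for leukocyte integrins, was at 841, 1514 and 704 CPM against 340.0 to 1001 CPM. The libraries did not overlap for Csf3 and Sele. Lgals1, in the same list, was the 1 member lower at an unadjusted p under 0.05, against 2.94% of all tested genes.

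Immediate-early and heat shock genes were higher in 25 of 28 cases (median 0.53, where 48.1% of all tested genes were higher), 7 of them at an unadjusted p under 0.05 against 1.87% of all tested genes. Without Apelin-depleted library 2 that number was 1 and the median 0.29. Fosb, a component of the AP-1 factor, was at 896 CPM in that library and at 187 and 86.5 CPM in the other Apelin-depleted libraries, against 102, 126 and 162 CPM (log2 fold change 1.6, SE 0.49, edgeR adjusted p = 0.906). With each library left out, the log2 fold change of Fosb was 0.08 to 2.08. Nr4a1 was at 448, 577 and 369 CPM against 148, 240 and 427 CPM (0.88, SE 0.33). Genes of this kind also respond to tissue digestion and sorting, and the part of those steps was not tested.

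Interferon and antigen presentation genes varied widely among the wild-type libraries, and the Apelin-depleted sums lay within their range. The interferon-stimulated list summed to 18029, 19481 and 18324 CPM in wild-type libraries 1, 5 and 6, to 5759 to 8594 CPM in wild-type libraries 2, 3 and 4, and to 12198 to 16388 CPM in the Apelin-depleted libraries. The MHC list summed to 14999 to 23362 CPM in the former 3 libraries, to 9684 to 11116 CPM in the latter 3 and to 15687 to 21541 CPM in the Apelin-depleted libraries. Of 28 interferon-stimulated genes 19 were higher (median 0.11). The median was -0.03 without wild-type library 3, 0.27 without wild-type library 1 and 0.60 with the replicate number as a block. At an unadjusted p under 0.05, 3 genes were higher, against 1.87% of all tested genes. The number was 1 without wild-type library 2 or Apelin-depleted library 1 or 2. Ifit1, an antiviral effector, was at 685 CPM in Apelin-depleted library 1 and at 186 and 108 CPM in the others, against 96.6, 127 and 187 CPM. Irf9, a subunit of the interferon-activated factor, was at 106, 148 and 194 CPM against 59.3, 85.5 and 126 CPM, and Irf1 at 747, 822 and 340 CPM against 278, 349 and 549 CPM. Of 21 MHC and antigen presentation genes 17 were higher (median 0.34, and 0.56 without wild-type library 6), and 1 was at an unadjusted p under 0.05, or 0 to 4 with each library left out (0 without wild-type library 3, 4 or 5 or Apelin-depleted library 1 or 2). Nlrc5, the activator of MHC class I genes, was at 73.7, 109 and 54.1 CPM against 20.6, 47.3 and 56.6 CPM. Cd274, which encodes PD-L1, and the class II gene H2-Eb1 had log2 fold changes of 1.31 (SE 0.66) and 1.59 (SE 0.81), with overlapping groups.

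Matrix, hypoxia, cell cycle and respiratory genes gave medians near 0. In the basement membrane, matrix and integrin list 21 of 34 tested genes were higher (median 0.14), with 2 lower and 2 higher at an unadjusted p under 0.05, against 2.94% and 1.87% of all tested genes. The lower ones numbered 0 without wild-type library 1 or 2, and the higher ones 0 without wild-type library 4 or Apelin-depleted library 3. Without the last of these the list median was -0.08, and without wild-type library 2 it was 0.23. Mmp14, the membrane protease of invading tip cells, was at 417, 598 and 596 CPM against 577, 843 and 1269 CPM (log2 fold change -0.69, SE 0.30, edgeR adjusted p = 0.991). Adamts1, a matrix protease, was at 481, 945 and 1486 CPM against 513, 564 and 714 CPM (0.73, SE 0.30). Lox, which crosslinks collagen, had 2 counts in Apelin-depleted library 3 and none in the other Apelin-depleted libraries, and lay at 0 to 37.3 CPM in the wild-type group, highest in library 2. In the hypoxia and glycolysis list 18 of 34 were higher and 16 lower (median 0.07), with 1 lower and 2 higher at an unadjusted p under 0.05. The median was 0.17 without wild-type library 4. Without Apelin-depleted library 1 it was -0.22, with 3 lower and 0 higher at that p. Bnip3, a mitophagy receptor, was at 168 CPM in Apelin-depleted library 1 and at 7.53 and 27.7 CPM in the others, against 9.03, 20.4 and 36.1 CPM. P4ha2, a collagen prolyl hydroxylase subunit, was at 254, 74.2 and 88.1 CPM against 54.8, 63.7 and 112 CPM, and Pfkfb4, a regulator of glycolysis, at 0, 0.422 and 0.609 CPM against 0.347, 6.12 and 12.1 CPM. DESeq2 called Pfkfb4 and Lox lower (DESeq2 adjusted p = 0.0147 and 0.0253, with 0.671% of genes called lower by DESeq2), and edgeR called neither. Both genes passed the filter on low counts only through wild-type libraries, which set their direction.

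Of 40 cell cycle genes 22 were lower (median -0.14, -0.63 without Apelin-depleted library 2 and 0.05 without Apelin-depleted library 1), and 0 passed an unadjusted p under 0.05. With each library left out, 0 to 2 were lower and 0 to 5 higher at that p. The mitotic topoisomerase gene Top2a was at 83.1, 89.6 and 158 CPM against 117, 153 and 430 CPM (log2 fold change -0.82, SE 0.42). Cenpe and Ube2c, genes of chromosome alignment and mitotic exit, had log2 fold changes of -0.97 (SE 0.51) and -0.92 (SE 0.49). Of 39 tested respiratory chain genes 32 were lower, against 51.9% of all tested genes. Their median was -0.15 (-0.056 without wild-type library 5, -0.30 without Apelin-depleted library 3 and 0.04 with the replicate number as a block), and 0 passed an unadjusted p under 0.05. The 3 with the smallest p, Uqcrq, Cox7b and Ndufb7 of complexes III, IV and I, had log2 fold changes of -0.60 (SE 0.33), -0.45 (SE 0.29) and -0.45 (SE 0.32). The highest sums of this list were 13647 and 13546 CPM in wild-type libraries 5 and 6.

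DESeq2, run as an alternative test, called more genes than edgeR. Markers of other cell types made up 4 of the 97 lower genes (S100a8, S100a9, Pdgfrb and Dpt). Of the 97, 70 had groups without overlap, 93 had an unadjusted edgeR p under 0.05, and 52 had a mean under 10 CPM in both groups. The highest of the 9 libraries was wild-type library 5 in 32 of them and wild-type library 2 in 21 (33.0% and 21.6%). The 97 were selected as lower, and no Apelin-depleted library was highest in any of them. The shares over all tested genes, 16.7% and 11.2%, also count genes highest in Apelin-depleted libraries. The selection alone thus raises the wild-type shares, and no excess in these 2 libraries is concluded. Without wild-type library 2, DESeq2 called 82 lower genes, 63 of them among the 97, and 27 higher, 14 of them among the 19. Without this library and the 2 highest in macrophage markers, it called 166 lower genes, 44 of them among the 97, and 28 higher, 9 of them among the 19. The 5 lower genes with the smallest p were Apln, Ccl11, Wnt7b, Acpp and Ildr2. Ccl11, the chemokine eotaxin, had no counts in 7 of the 9 libraries and stood at 4.93 and 29.6 CPM in wild-type libraries 1 and 2.

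The 5 higher genes included Cd2, Ctsw, Itm2a and Lmcd1, of which Cd2 alone is on a marker list of another cell type. Cd2, an adhesion receptor of T and NK cells, was at 21.8, 37.5 and 20.0 CPM against 0, 0.148 and 1.28 CPM (log2 fold change 6.02, SE 1.09, edgeR adjusted p = 0.197). Ctsw, a protease of cytotoxic lymphocytes, was at 4.59, 2.46 and 48.0 CPM against 0 to 0.183 CPM, and Itm2a, a membrane protein of T cells and other tissues, at 15.5, 5.91 and 56.7 CPM against 0 to 1.84 CPM. Cd2, Ctsw and Itm2a passed the low-count filter of edgeR only through the Apelin-depleted libraries, so the filter set their direction. Ptprc was at 0 in Apelin-depleted library 2, in which Cd2 was highest.

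Genes that varied most within the groups were most often highest in wild-type library 2 and Apelin-depleted library 2. Among 9279 genes with a mean of at least 10 CPM, the median within-group SD was 0.63 on the log2(CPM + 1) scale, and the 100 most variable genes had SDs of 2.06 to 5.56. Of the 41 markers of other cell types among the 9279, 21 were in these 100. The highest library was wild-type library 2 for 26 of the 100 (among them Dcn, Postn and Thbs2) and Apelin-depleted library 2 for 21 (Mmrn1, Pdpn, Prox1). Of all tested genes, 11.2% and 12.6% were highest in these libraries. Apelin-depleted library 1 was highest for 16 (Lyz2, Il1b, Tyrobp) and wild-type library 3 for 15 (Lyve1, Sema3d, Stab2), near their 11.2% and 13.7% of all tested genes. Lyve1 was also at 1081 and 632 CPM in Apelin-depleted libraries 2 and 1. Wild-type library 1 was highest for 10 (against 7.94% of all tested genes), among them Eln, the elastin gene, at 710 CPM, and Mgp. These examples were named after their values were seen.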

How the data were processed

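RNA-Seq counts of 9 tumor EC libraries were used, and the 4 libraries of embryoid sprouts were not used here. The authors deposited whole-number counts per gene without normalization. The study's methods name STAR and featureCounts, and the submitters' processing notes list mm10, Trim Galore 0.5.0, Bowtie2 2.3.4.1, SAMtools 1.9 and Subread 1.6.2. Bowtie2 and STAR are both named, and which aligner gave the counts is not settled by these sources. Reads that fit near-identical genes, or overlapping genes on either strand, may have been dropped or shared.

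Counts were filtered with filterByExpr (minimum count 10), scaled by TMM and tested in R 4.3.3 with the robust quasi-likelihood fit of edgeR 4.0.16 (Benjamini-Hochberg adjustment over all 13073 tested genes). Calls needed an adjusted p under 0.05 and a log2 fold change beyond 1 in either direction. DESeq2 1.42.0, its size factors in edgeR, no filter, a mean of at least 10 counts, the replicate number as a block, limma 3.58.1 (voom with sample quality weights) and each library left out in turn were alternatives. Fits without the libraries highest in macrophage or fibroblast markers were chosen after seeing the data. The scripts were tested on simulated data.

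Gene lists and the comparisons were chosen with earlier results of these data known. Named genes were Apln, Aplnr and the gate genes, the 12 lower and 12 higher genes with the smallest p among genes with a mean of at least 10 CPM, 3 genes per process list, up to 3 per list of other cell types (the 2 with the highest mean and the tested member with the smallest p) and the first 5 DESeq2 calls in each direction. One gene that this rule named is not reported here. Same-numbered libraries of the groups did not deviate together. Libraries of one group differed by more than counting noise (chi-square per degree of freedom 46.4 to 155), so no library was treated as a second deposit of another. Amplification and the sampling of cells exceed counting noise too, so this does not show that libraries came from separate tumors.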

Additional observations from a re-analysis of the deposited data

Results flagged for a closer look

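The 6 Apelin wild-type libraries were examined for single libraries far from the rest (Dixon's ratio of the gap to the range, on log2(CPM + 1), against its 95% critical value), and 12 of 134 results stood out, where chance gives about 5% of groups. Wild-type library 2 was highest in the summed fibroblast list (ratio 0.746, 6434 CPM) and in Dcn (0.719). Wild-type library 3 was highest in Flt4 (0.772, 309 CPM), Retn (0.764) and Plin4 (0.729). Wild-type library 4 was highest in Lyz2 (0.757, 455 CPM) and Jchain (0.877) and lowest in Tacr1 (0.700, 28.8 CPM). Wild-type library 5 was highest in Top2a (0.632, 430 CPM) and Efhd1 (0.767) and lowest in the summed hypoxia and glycolysis list (0.629, 5731 CPM). Wild-type library 1 was lowest in Ereg (0.704, 2.01 CPM). Groups of 3 are too small for this rule, so the Apelin-depleted libraries were not examined by it.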

How the results depend on the processing

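The decrease of Apln kept its direction and its call under every alternative run (log2 fold change -7.22 to -6.28). The number of genes lower past the thresholds was 97 with DESeq2, 7 without a filter, 2 without the 2 libraries highest in macrophage markers, and with DESeq2 82 without the library highest in fibroblast markers and 166 without all 3. With each library left out it was 1 to 2. The number higher was 19 with DESeq2, 9 without a filter, 1 with limma voom, and 27 and 28 in the same 2 reduced DESeq2 fits. At an unadjusted p under 0.05, lower genes numbered 875 with DESeq2, 777 without a filter, 247 with limma voom, and 292 to 577 with each library left out, highest without Apelin-depleted library 1. Higher genes numbered 374 with DESeq2 and 853 without a filter. The cause of these shifts was not tested, except that more genes were tested without a filter. The median over all genes was -0.13 with DESeq2 and without a filter, both over more genes.

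With the replicate number as a block, 6 of 21 MHC genes were higher at an unadjusted p under 0.05, against 1 without it. In this fit 2 genes were lower past the thresholds, and 248 lower and 163 higher at an unadjusted p under 0.05. The numbers did not pair the libraries (correlations of deviations -0.07, 0.06 and -0.14). Signs turned with the block for Aplnr (-0.31), Arrb2 (0.47), Alas2 (0.21) and Acta1 (-0.45).

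Of 1359 values of 81 named genes, 1300 kept direction and side of the thresholds, 40 passed them under an alternative and 19 reversed. With limma voom, Aplnr (-0.26), Ptprc (-0.74) and Pf4 (1.26) reversed. Bnip3 reversed without the 2 libraries highest in macrophage markers (-0.27) and without these and the one highest in fibroblast markers (-0.19), and Fcer1g in the former (-0.0542). Leaving out single libraries gave log2 fold changes of -0.46 to 0.67 for Aplnr, -0.014 to 0.24 for Pecam1, -0.26 to 1.88 for Ptprc, -0.056 to 1.45 for Klf4, -0.27 to 2.19 for Bnip3, -0.20 to 1.68 for Fcer1g, -3.48 to 6.20 for Chil3, -0.015 to 4.07 for Prox1 and -4.21 to 3.58 for Acta1.

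Of 408 list medians under alternatives, 369 moved by less than 1 SD. Medians of the apelin, hypoxia, cell cycle, matrix, interferon, respiratory chain, pan-leukocyte, macrophage, epithelial and lymphatic lists changed sign in some of them. Depth limits genes near the floor of 3 counts, and pools of 100 cells limit genes of rare cells.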

Other observations

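Cdh4, which encodes R-cadherin, was the most variable gene within the groups. It stood at 15436 CPM in wild-type library 1, where it was the most abundant gene, and at 19847 CPM in wild-type library 5, and at 0.0977 to 9.53 CPM in the other 7 libraries. The Apelin-depleted values were 1.02, 1.48 and 4.02 CPM, within the range of the other wild-type libraries. DESeq2 counted Cdh4 among its 97 lower genes (DESeq2 log2 fold change -11.4, adjusted p = 0.0024), with only wild-type libraries 1 and 5 above 10 CPM, whereas its edgeR adjusted p was 1.00 and the groups overlapped. The reads behind its values were not examined here, so what they stem from is not known. Malat1, a nuclear long noncoding RNA, lay at 38718 CPM in wild-type library 5 and at 5038 CPM in Apelin-depleted library 2, its highest and lowest values. Both genes were named after their values were seen.

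Lgals3, which encodes galectin-3 and is abundant in macrophages, was at 3097 CPM in Apelin-depleted library 1 and at 156 to 648 CPM in the other 8 libraries. Complement C3 and the pentraxin gene Ptx3 were highest in wild-type library 3, at 190 and 50.7 CPM, alongside its high Lyve1. The neuropeptide gene Gal was at 40.1 to 136 CPM in wild-type libraries 1, 5 and 6, which also had the highest sums of the interferon-stimulated list, and at 0.0977 to 4.13 CPM in the other 6. These genes too were named after their values were seen, and no cause of their spread was tested.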
